A study of Rattus norvegicus with 20 samples.

Results

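Myh7 and Myh6 encode the slow (beta) and the alpha cardiac myosin heavy chain. Both genes were followed in the soleus, a postural muscle of the rat hind limb, after injury of the upper thoracic spinal cord. They were chosen for their function, with earlier results of these data known. Their rows are ENSRNOG00000016983 for Myh7 and ENSRNOG00000025757 for Myh6, 2 of the 24613 Ensembl identifiers of a table of raw read counts from RNA sequencing. The table carries no gene names, and the names of these rows came with the choice of genes. The 5 groups of 4 Sprague-Dawley rats were rats whose cord was completely transected at T2, rats that swam after a T2 contusion of 25 g-cm, contused rats that walked in shallow water, contused rats without exercise, and rats with no spinal injury. Exercise began 2.5 weeks after injury and was given on 5 days a week for 10 weeks. The soleus was collected at 8.5 weeks in the transection group, at 13.5 weeks in both exercised groups and at 11.5 weeks in the group with contusion alone, and the uninjured rats are labelled 11.5 weeks. Time therefore cannot be told apart from injury or exercise in every comparison except contusion against uninjured and swimming against walking. The design text says that all animals lived in small cages from day 4 after surgery, which restricted movement in every group.

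Myosin heavy chains are the motor proteins of the thick filament, and the isoform a fibre carries sets how fast it contracts. Myh7 is the heavy chain of slow, type I fibres and of the ventricle, and it is the main heavy chain of the soleus. Its expression is known to depend on nerve activity and on load. Myh6 is the chain of the atria and of the rodent ventricle, and in skeletal muscle it is known from the intrafusal fibres of muscle spindles and from some jaw muscles. In the heart, thyroid hormone is known to raise Myh6 and to lower Myh7.

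The genes are neighbours on rat chromosome 15 in RefSeq's GRCr8 annotation, with 0 protein-coding genes lying between them, and each carries a microRNA within its span on its own strand. These microRNAs are shown because their host transcripts are the genes measured here. The libraries were made from poly-A RNA and did not measure mature microRNAs. From RefSeq (GRCr8, minus strand), with the seed (bases 2 to 8) in capitals, the 3p arms read as follows.
Myh7 host, rno-miR-208b-3p, chr15:32421648-32421665: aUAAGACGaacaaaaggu
Myh6 host, rno-miR-208a-3p, chr15:32395568-32395585: aUAAGACGagcaaaaagc
Both carry the same seed. Over 18 bases counted from the 5′ end they differ at 3 positions, written from miR-208a to miR-208b as G10A, A16G and C18U. The coding sequences of the 2 genes are known to be closely alike, so reads that match both may have been split between them, discarded or assigned to either. How the counting treated such reads, and whether it used strand, is not given in the sources used here. In GRCr8, 6 other annotated genes, microRNAs included, overlap the spans of Myh7 and Myh6.

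Library totals ran from 31877886 to 36438046 counts after transection, 21165832 to 30649862 with swimming, 21445449 to 36604027 with walking, 22394223 to 35986860 after contusion and 26195066 to 39729930 in uninjured muscle. Values are given as counts per 1000000 counts (CPM) after scaling by the trimmed mean of M values. The lowest count of either gene was 295, for Myh6 in swimming library 2, where the 95% exact Poisson interval of 11.6 to 14.6 CPM covers counting error only. Swimming library 2 stood far from its group in Myh7, and Myh6 levels differed widely between libraries of the same group. Transection library 3 had a count for 13837 genes, the fewest of the 20 libraries, and the lowest scaling factor, 0.711. Results that rest on single libraries are therefore given with and without them. Myh7 took 0.128% to 0.351% of all counts after transection, 0.0684% in swimming library 2 and 1.85% to 2.18% in the other swimming libraries. It took 1.23% to 2.08% in the walking and contusion groups, and 1.62% to 1.96% in uninjured soleus. Because Myh7 is itself the gene under study, this share is no separate check of the labelled tissue. Swimming library 2 thus had the lowest share of the 20 libraries, and whether its tissue or label is right was not tested. The lists of other fibre type, heart and cell type markers could not be applied, because 0 identifiers of the table were paired with a symbol in the reference. In bulk muscle, fewer fibres of a type and less RNA per fibre cannot be told apart.

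Myh7 was lower after complete transection than in each of the other groups, and outside the transection group it lay between 12628 and 19652 CPM in all libraries but 1 swimming library. It stood at 1614, 1661, 2418 and 3681 CPM in transection libraries 1 to 4, against 16663, 15867, 17995 and 16544 CPM in uninjured libraries 1 to 4. All 4 transection libraries lay below all 4 uninjured libraries. The mean ± SD over 4 libraries was 2344 ± 965 CPM in the transection group and 16767 ± 890 CPM in the uninjured group. Myh7 fell by 2.84 on the log2 scale (SE 0.57, edgeR quasi-likelihood test, adjusted p = 9.67e-04), which is 7.15-fold lower. Of 13398 genes tested, 28.3% were called changed (adjusted p below 0.05), 14.9% were called lower, and the groups did not overlap in 28.8%. A larger change in either direction was fitted for 0.888% of the tested genes. Without transection library 3 the log2 change was -2.87 (adjusted p = 0.00359). Over all alternatives tried, it lay between -3.16 and -2.71 and the adjusted p between 5.69e-08 and 0.00508.

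**Figure D1:**
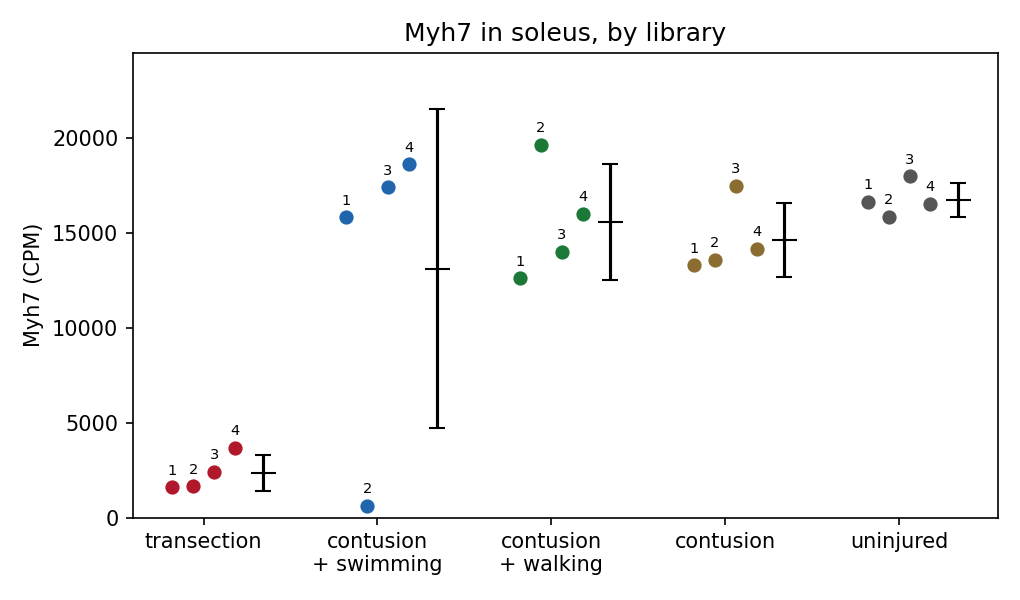
Myh7 in counts per 1000000 counts (CPM, linear axis from 0) in each of the 20 libraries, numbered by replicate, with the group mean and SD (n = 4) as a bar at the right of each group. Transection libraries lay between 1614 and 3681 CPM, swimming library 2 lay at 639 CPM, and all other libraries lay at 12628 CPM or above.

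The contrast with incomplete injury was of like size. After contusion alone Myh7 stood at 13295, 13609, 17509 and 14176 CPM in libraries 1 to 4, all above the transection libraries, and 21.7% of genes showed no overlap in this comparison. Myh7 was lower after transection than after contusion by a log2 value of -2.64 (SE 0.56, edgeR adjusted p = 0.00344), with means of 2344 ± 965 CPM after transection and 14647 ± 1942 CPM after contusion (SD, n = 4 each). Here 15.5% of genes were called and 9.46% were called lower. Without transection library 3 the value was -2.67 (adjusted p = 0.0124). This is also the direct test of whether the change against uninjured muscle differed between the injuries, which cannot be told apart from the 3 weeks between the groups.

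Contusion without exercise was not distinguishable from no injury in Myh7. The log2 difference was -0.20 (SE 0.53) with a 95% interval of -1.30 to 0.91 (edgeR adjusted p = 0.952), and the groups overlapped. This SE rests on a spread shared by all groups, swimming library 2 included. The unadjusted edgeR p was 0.716 in this fit and 0.373 without swimming library 2 (adjusted p = 0.801). With the compared groups fitted alone it was 0.141 (adjusted p = 0.534). Of the contusion libraries, numbers 1, 2 and 4 lay below the lowest uninjured library, at 15867 CPM, and number 3 lay among the uninjured. In this comparison edgeR, fitted to all groups, called 0 genes (0%), while 1342 genes (10%) lay below an unadjusted p of 0.05. With DESeq2 the number of calls was 99, and it was 24 with limma voom and sample weights.

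With walking Myh7 stood at 12628, 19652, 14031 and 16023 CPM in libraries 1 to 4, a range that took in all uninjured libraries. The mean was 15583 ± 3049 CPM with walking, against 14647 ± 1942 CPM after contusion alone (SD, n = 4 each). The log2 difference was 0.09 (SE 0.53) with a 95% interval of -1.01 to 1.19 (edgeR adjusted p = 0.9996). The shared spread again included swimming library 2. Without that library the unadjusted edgeR p was 0.683, against 0.867 with it. For walking against contusion edgeR, DESeq2 and voom each called 0 genes (0%), and 439 genes (3.28%) lay below an unadjusted p of 0.05 with edgeR. Against uninjured muscle, where 0.493% of genes were called, the log2 difference with walking was -0.11 (SE 0.53, 95% interval -1.21 to 1.00, edgeR adjusted p = 0.955). Its unadjusted edgeR p was 0.843 with all libraries and 0.624 without swimming library 2. The walking group stood above the transection group by 2.73 on the log2 scale (SE 0.56, edgeR adjusted p = 0.00213), without overlap. In that comparison 20.1% of genes were called, 11.1% were called higher, and 22.1% showed no overlap.

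The swimming group split. Libraries 1, 3 and 4 held 15831, 17426 and 18640 CPM of Myh7, among or close to the uninjured libraries, while library 2 held 639 CPM, below every transection library. The 14467 counts behind that value give a 95% exact Poisson interval of 628 to 649 CPM, for counting error only. Its total of 21165832 counts was the lowest of the 20 libraries, and it had a count for 15478 genes, the fewest of the swimming libraries, where the most was 16103. The part of depth in the Myh7 value was not tested. The mean was 13134 ± 8409 CPM over 4 swimming libraries and 17299 ± 1409 CPM over the 3 without library 2 (SD). In the same library ENSRNOG00000019745, an identifier with no name here that was singled out after its values were seen, reached 8209 CPM. It lay between 112 and 494 CPM in the other swimming libraries, between 965 and 1904 CPM after transection and between 2.40 and 7.95 CPM in uninjured muscle. Its part in the Myh7 value was not tested.

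The direction of every comparison of Myh7 with swimming, other than with transection, rested on that library. Against contusion alone, where 4.55% of genes were called, the log2 difference was -0.16 with all libraries (SE 0.53, 95% interval -1.26 to 0.94, edgeR adjusted p = 0.893) and 0.24 without swimming library 2 (adjusted p = 0.610). Against walking, where 0.00746% of genes were called, it was -0.25 (SE 0.53, 95% interval -1.35 to 0.86, edgeR adjusted p = 0.846) and 0.15 without that library (adjusted p = 0.796). Against uninjured muscle, where 20.2% of genes were called, it was -0.35 (SE 0.53, 95% interval -1.46 to 0.75, edgeR adjusted p = 0.664) and 0.043 without it (adjusted p = 0.917). Myh7 was higher with swimming than after transection by 2.49 on the log2 scale (SE 0.56, edgeR adjusted p = 0.00236), or 2.88 without library 2 (adjusted p = 9.48e-08). In that comparison 29.4% of genes were called and 15.6% were called higher. Fitted on these 2 groups alone, the difference was 2.51 and passed narrowly (edgeR adjusted p = 0.0492), and 2300 genes were called.

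By mean level, Myh7 followed the order transection at 2344 CPM, swimming at 13134, contusion at 14647, walking at 15583 and uninjured at 16767 CPM. Without swimming library 2, the swimming mean of 17299 CPM was the highest of the 5. Of the neighbours in this order, swimming and transection differed past the threshold, though swimming library 2 lay below every transection library and the groups separated only without it. No other neighbours differed past the threshold, and all of them overlapped. A single test of any difference among the 5 groups called Myh7 (edgeR adjusted p = 0.00675) along with 34.4% of all genes. The 4 uninjured libraries were close to each other, with a highest value 1.13 times the lowest. Among 7106 genes with a mean of at least 10 CPM, 91.3% spread more widely in that group. In the swimming group the highest Myh7 value was 29.2 times the lowest, a span that 24 of these genes exceeded (0.338%).

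Myh6 levels spanned up to 16.4-fold within a group, in the swimming group with library 2 included, and no pair of groups differed past the threshold. Myh6 stood at 33.0, 32.2, 94.2 and 72.2 CPM in transection libraries 1 to 4. With swimming it stood at 197, 13.0, 23.6 and 214 CPM in libraries 1 to 4, and with walking at 169, 335, 284 and 27.5 CPM. After contusion alone it stood at 17.2, 21.0, 26.5 and 25.2 CPM, and in uninjured muscle at 28.3, 240, 275 and 25.4 CPM. Thus 2 swimming, 3 walking and 2 uninjured libraries lay between 169 and 335 CPM, the contusion libraries reached 26.5 CPM at most, and all 4 transection libraries lay between these levels.

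**Figure D2:**
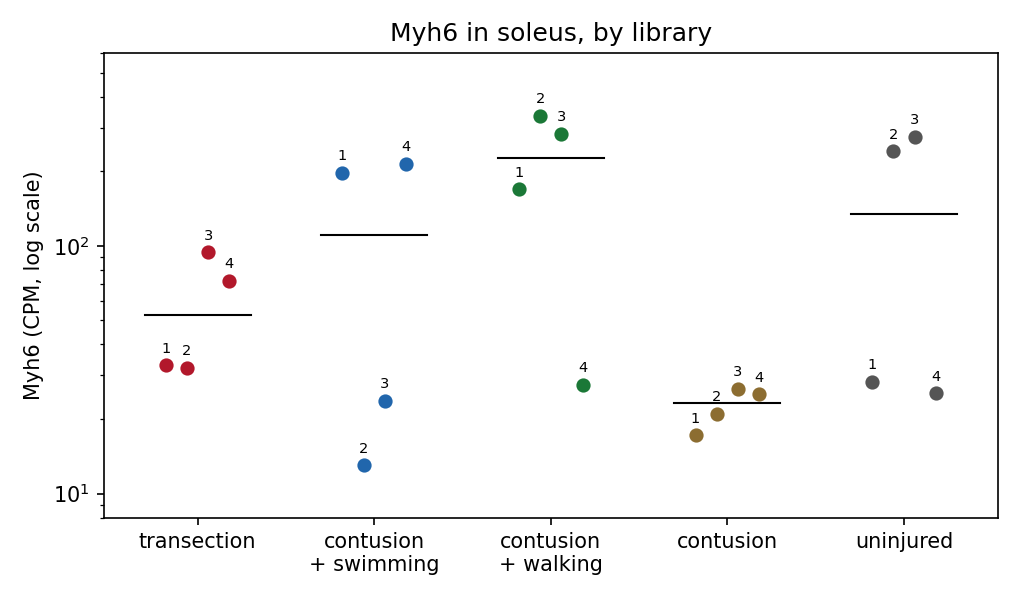
Myh6 in counts per 1000000 counts (CPM, log axis) in each of the 20 libraries, numbered by replicate, with the group median as a line. Uninjured libraries 1 and 4 lay at 28.3 and 25.4 CPM and libraries 2 and 3 at 240 and 275 CPM, whereas the 4 contusion libraries lay together between 17.2 and 26.5 CPM.

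Among the 7106 genes with a mean of at least 10 CPM, few varied as much as Myh6 between libraries of 1 group. In uninjured muscle its highest value was 10.8 times the lowest, where the median gene reached 1.33 times, and 10 genes spread more widely. With walking it was 12.2 times, and 5 genes spread more widely. With swimming, where library 2 was the lowest, it was 16.4 times, and 52 genes did. After transection it was 2.92 times (149 genes), and after contusion alone 1.54 times (1175 genes). Depth did not move with these levels in 1 direction. In the uninjured and swimming groups the 2 libraries with the most Myh6 also had the largest totals, while in the walking group the library with the least, number 4, had the largest total. The labels name no batch that could be set beside the libraries.

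For Myh6 the test of any difference among the 5 groups missed the threshold (edgeR adjusted p = 0.0548, unadjusted p = 0.0195). That test passed under DESeq2 (adjusted p = 0.0277), under voom (0.0122) and without uninjured library 1 (0.0419) or 4 (0.0410), swimming library 2 (0.0280) or 3 (0.0417), or walking library 4 (0.0263). Of all genes, it called 5575 under DESeq2 and 6252 under voom, against 4604 (34.4%) in the main fit. The mean ± SD over 4 libraries was 57.9 ± 30.6 CPM in the transection group and 142 ± 134 CPM in the uninjured group, and the log2 difference was -1.30 (SE 0.84, 95% interval -3.05 to 0.45, edgeR adjusted p = 0.260), or -1.66 without transection library 3 (adjusted p = 0.212) and -0.76 without uninjured library 3 (adjusted p = 0.570). Contusion gave a mean of 22.5 ± 4.24 CPM, a log2 difference from uninjured muscle of -2.66 (SE 0.88, 95% interval -4.50 to -0.83) that did not pass (edgeR unadjusted p = 0.00667, adjusted p = 0.261). Uninjured libraries 1 and 4 lay among or next to the contusion libraries.

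Against contusion alone, the exercised groups held more Myh6 on average. The mean was 204 ± 137 CPM with walking and 22.5 ± 4.24 CPM after contusion alone (SD, n = 4 each). The log2 difference was 3.18 (SE 0.90, 95% interval 1.30 to 5.05). All 4 walking libraries lay above all 4 contusion libraries, though walking library 4, at 27.5 CPM, did so by little, and 2.92% of all genes showed no overlap in this comparison. The unadjusted p was 0.00207, the tenth smallest among the genes tested, and the adjusted p was 0.9996 (edgeR). With swimming the mean was 112 ± 109 CPM, a log2 difference from contusion of 2.32 (SE 0.87, 95% interval 0.51 to 4.13, edgeR adjusted p = 0.122), and the groups overlapped. Without swimming library 2 this difference was 2.69 (edgeR adjusted p = 0.0891), and without library 3 it was 2.65 (0.0855). It was 1.91 without swimming library 1 (edgeR adjusted p = 0.227) and 1.84 without library 4 (0.244). Myh6 after transection differed from contusion by a log2 value of 1.36 (SE 0.85, 95% interval -0.40 to 3.13, edgeR adjusted p = 0.301), and all 4 transection libraries lay above all 4 contusion libraries, a share of genes without overlap given above as 21.7%. Fitted on these 2 groups alone, this difference was 1.35 and passed (edgeR adjusted p = 0.0157), in a fit that called 1976 genes. It did not pass without transection library 3 (1.02, edgeR adjusted p = 0.516) or with voom (0.95, adjusted p = 0.437).

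The remaining comparisons of Myh6 had wide intervals. Swimming against walking gave -0.86 (95% interval -2.59 to 0.87, edgeR adjusted p = 0.631). Walking against uninjured muscle gave 0.52 (95% interval -1.20 to 2.23, adjusted p = 0.834), and swimming against uninjured muscle gave -0.34 (95% interval -2.06 to 1.37, adjusted p = 0.796). The sign of the last turned without swimming library 2 (0.026) and without uninjured library 2 or 3. Against transection, walking gave 1.82 (95% interval 0.04 to 3.59, adjusted p = 0.141) and swimming 0.96 (95% interval -0.78 to 2.69, adjusted p = 0.417). Single libraries moved these values. Swimming against transection was 0.45 without swimming library 4, 0.52 without swimming library 1 and 1.33 without swimming library 2. Walking against uninjured muscle was 0.17 without walking library 2 or uninjured library 1 or 4, 0.31 without walking library 3, 0.88 without walking library 4, 0.89 without uninjured library 2 and 1.05 without uninjured library 3. Swimming against walking was -1.35 without swimming library 4 and -0.49 without swimming library 2, with -0.52 and -0.51 without swimming library 3 or walking library 2. By mean level the order was contusion at 22.5 CPM, transection at 57.9, swimming at 112, uninjured at 142 and walking at 204 CPM, and no neighbours in it differed past the threshold. Of the neighbours, contusion and transection did not overlap, and the other neighbours overlapped.

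**Figure D3:**
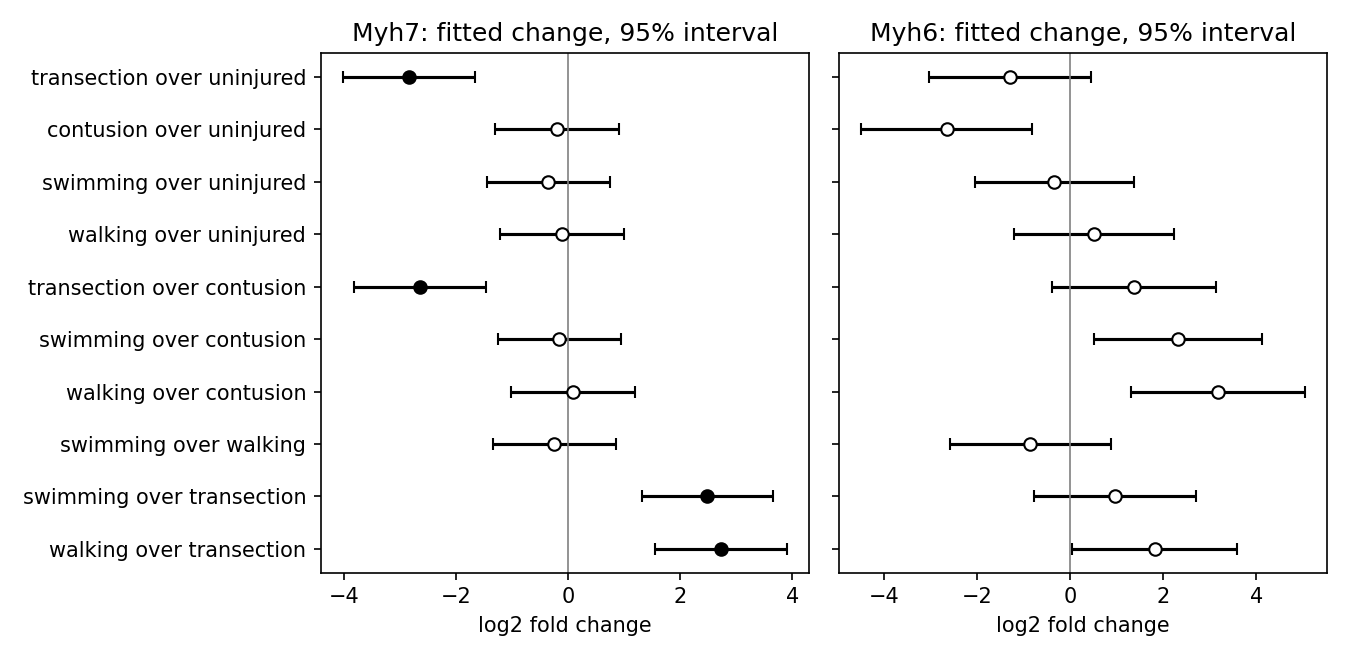
Log2 fold changes of Myh7 (left) and Myh6 (right) for the 10 pairs of groups, with the group named first over the group named second, and their 95% intervals from the edgeR fit; filled points passed an adjusted p of 0.05. In Myh7 the filled points are the 4 comparisons with transection, and in Myh6 no point is filled.

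The ratio of Myh6 to Myh7 counts within a library does not depend on how libraries are scaled. Counts were not divided by transcript length, so the ratio is compared between libraries only. After transection there were 20.4, 19.4, 39.0 and 19.6 Myh6 counts per 1000 Myh7 counts in libraries 1 to 4. With swimming there were 12.5, 20.4, 1.36 and 11.5, and with walking 13.4, 17.1, 20.2 and 1.71. After contusion alone there were 1.29, 1.54, 1.51 and 1.78, and in uninjured muscle 1.70, 15.1, 15.3 and 1.54. Of the 20 libraries, 8 held between 1.29 and 1.78 Myh6 counts per 1000 Myh7 counts and 12 held between 11.5 and 39.0, with no library in between. The 8 were all 4 contusion libraries, uninjured libraries 1 and 4, swimming library 3 and walking library 4. The 12 held all transection libraries and swimming library 2, in which Myh7 was low, and 7 libraries in which Myh7 was at or above 12628 CPM.

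**Figure D4:**
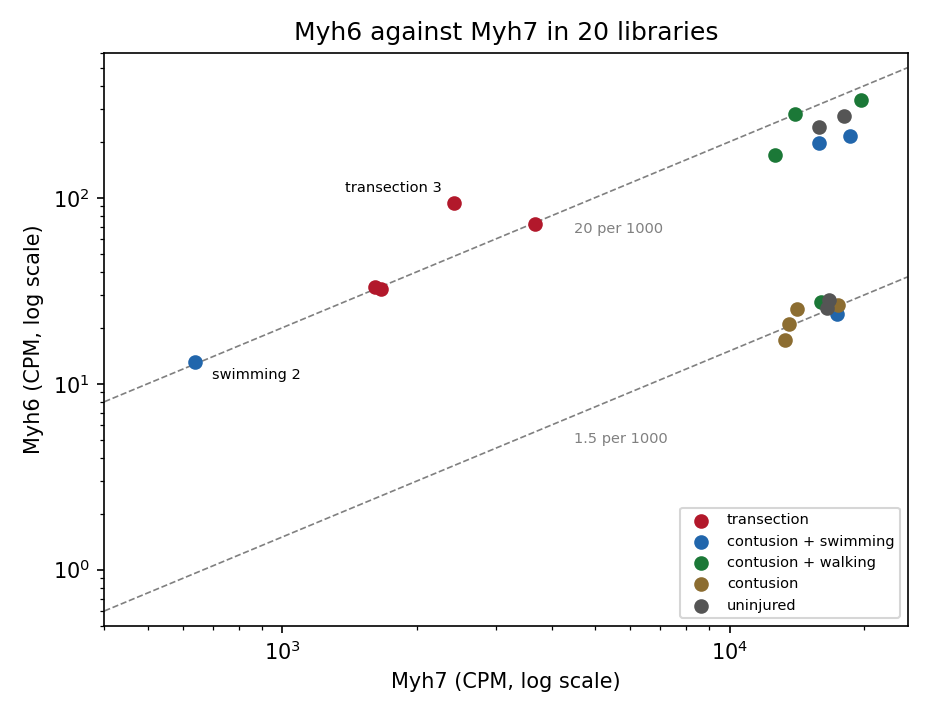
Myh6 against Myh7 in counts per 1000000 counts (CPM, both axes log) in the 20 libraries, coloured by group; the dashed lines, drawn as guides after the values were seen, mark 20 and 1.5 Myh6 counts per 1000 Myh7 counts. The contusion libraries lay near the lower line, at 1.29 to 1.78 per 1000, the transection libraries and swimming library 2 lay at 19.4 to 39.0, and the other swimming, walking and uninjured libraries lay either at 1.36 to 1.71 or at 11.5 to 20.2.

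All 4 transection libraries had a higher ratio than any uninjured library. The mean log2 ratio ± SD over 4 libraries was -5.41 ± 0.49 in the transection group and -7.66 ± 1.87 in the uninjured group. The difference of 2.24 had an exact two-sided permutation p of 0.0286. With groups of 4 no smaller p can be reached, and the p adjusted by Benjamini-Hochberg for 10 pairs of groups, 0.143, did not pass. Against contusion, at -9.36 ± 0.19 (SD, n = 4), the difference was 3.94, with the same exact permutation p of 0.0286 and adjusted p of 0.143. These groups did not overlap either. The ratio with walking exceeded that after contusion by 2.63 (exact permutation p = 0.0571, adjusted p = 0.190) and with swimming by 2.38 (exact permutation p = 0.114, adjusted p = 0.190), with overlap in both. The other 6 pairs had exact permutation p values between 0.0857 and 0.771. With single libraries left out, the difference ran from 1.68 to 2.78 for transection against uninjured muscle and from 3.70 to 4.04 for transection against contusion. For walking against contusion it ran from 2.26 to 3.45. For swimming against contusion it ran from 1.93, without swimming library 2, to 3.23. Beside the ratio stood a Myh7 level 7.15-fold lower after transection than in uninjured muscle, and Myh6 means of 57.9 and 142 CPM that did not differ past the threshold.

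Genes with a pattern like that of each heavy chain were looked for by the correlation of log2 CPM over the 20 libraries, among 11564 genes with a mean of at least 1 CPM. Correlations are given as descriptions, since the libraries share groups and scaling. For Myh7 the most alike were ENSRNOG00000017441 (Pearson r = 0.984, Spearman rho = 0.645) and ENSRNOG00000010137 (r = 0.974, rho = 0.687), neither of which has a name in the sources used here. In all, 46 genes had r above 0.9. Without swimming library 2 and transection library 1, the libraries farthest from the median of Myh7, r was 0.978 and 0.962. The other transection libraries, also low in Myh7, stayed in, so r still rested on the gap between low and high libraries. ENSRNOG00000017441 averaged 707 CPM (SD 289, n = 4) in the transection group and 9261 CPM (SD 926, n = 4) in the uninjured group, a log2 difference of -3.71 (SE 0.60). ENSRNOG00000010137 averaged 62.6 CPM (SD 17.0, n = 4) in the transection group and 514 CPM (SD 83.9, n = 4) in the uninjured group, a log2 difference of -3.04 (SE 0.48). In swimming library 2 they stood at 256 and 32.0 CPM, as Myh7 did below every transection library. Both genes were picked for following Myh7 over these libraries, so their levels are a description, with no test.

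No gene followed Myh6 as closely: 0 genes had r above 0.9. The most alike were ENSRNOG00000007591 (r = 0.820, rho = 0.771) and ENSRNOG00000000498 (r = 0.757, rho = 0.794), and without walking libraries 2 and 3, the farthest from the median, r was 0.763 and 0.673. Their amplitude was much smaller. Between the lowest and the highest library ENSRNOG00000007591 spanned 2.25 to 7.13 CPM, or 3.16-fold, and ENSRNOG00000000498 spanned 14.2 to 29.3 CPM, or 2.07-fold, whereas Myh6 spanned 25.7-fold. Neither gene passed in any comparison with uninjured muscle.

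**Figure D5:**
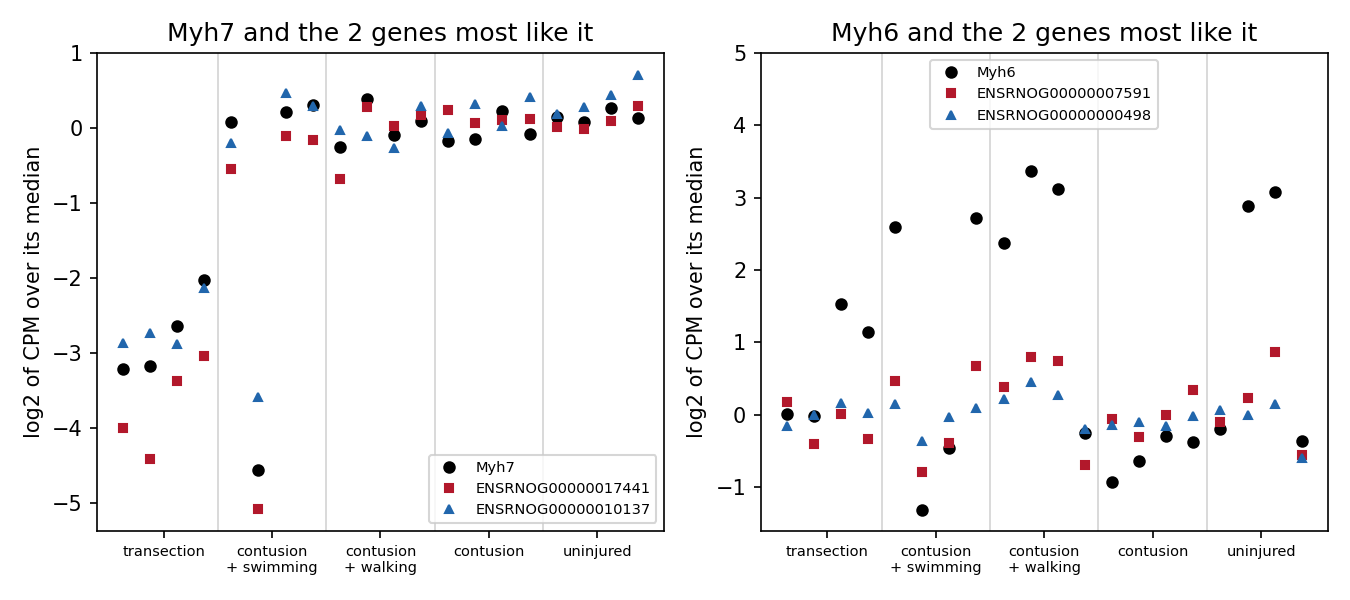
Log2 of CPM over the gene's own median across the 20 libraries, by group and in replicate order within a group, for Myh7 (left) and Myh6 (right) with the 2 genes of highest correlation to each. The genes like Myh7 dropped with it in the transection libraries and in swimming library 2, while the genes like Myh6 spanned 3.16-fold and 2.07-fold, and Myh6 25.7-fold.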

How the data were processed

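RNA from soleus muscle was sequenced from 20 rats in 5 groups of 4, grouped by the sample labels. Poly-A RNA was made into stranded libraries, per the labels' protocols. The deposited values are whole-number counts per Ensembl gene, not normalised by the authors. The submitters' processing notes list FastQC 0.10.1, HTSeq and genome build rn6. No source used here gives the aligner, the annotation or the strand setting of the counting. All libraries were counted as separate, since chi-square per degree of freedom was 26.5 to 517 over the 30 pairs within groups. The labels describe separate samples, and p-values measure the spread between them.

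Counts were tested with edgeR 4.0.16 in R 4.3.3 (quasi-likelihood), fitted to all 20 libraries with a mean per group, trimmed-mean scaling and filterByExpr at a minimum count of 10, which kept 13398 genes and both members. p-values were adjusted by Benjamini-Hochberg over all genes tested and called below 0.05. The SE was obtained from the log2 fold change and its F statistic. Log2 CPM used a prior count of 2. The ratio used log2 of counts plus 0.5 and exact permutation tests (scipy 1.17.1). The alternatives included DESeq2 1.42.0, voom in limma 3.58.1, other scalings and filters, the replicate number as a block and each library left out. The fit was also run, without the low-count filter, on simulated counts with changes planted in the transection group. No library was set far from its group there, so that run does not bear on such libraries, and its outcome is not reported here. Named genes are both members and, for each, the 2 genes of highest correlation among those with a mean of at least 1 CPM. Lists of slow and fast fibre, developmental myosin, regulator, denervation, heart and cell type genes were written by symbol and not applied, since 0 of 47357 genes of the reference table carry an Ensembl identifier. The members and lists were chosen with earlier results of these data known. Sequences are from RefSeq, GRCr8, and no coordinate was moved between builds. Figures were drawn with matplotlib 3.10.9.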

Additional observations from a re-analysis of the deposited data

Results flagged for a closer look

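Among 15 groups of 4 values examined (the CPM of each gene and the log2 ratio of Myh6 to Myh7 in each group), 3 had 1 library well apart from the rest. The rule was the gap to the nearest library as a share of the group's range. For independent, normal values about 1 group in 20 would pass it by chance, or 0.75 of the 15. The ratios reuse the counts of both genes, so the values were not independent and 3 cannot be weighed against 0.75. Swimming library 2 held 639 CPM of Myh7, the next lowest in its group 15831 CPM. Transection library 3 had a log2 ratio of -4.68, the next highest in its group -5.61. Walking library 4 had a log2 ratio of -9.19, the next lowest in its group -6.22. Myh7 also differed between the injuries by the direct test, with a log2 difference of -2.64 for transection over contusion (edgeR adjusted p = 0.00344).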

How the results depend on the processing

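Over 768 alternative values of 32 results, 744 were counted as kept, 12 turned direction and 12 newly passed. Kept values held their direction and their side of the threshold. For the ratio without a library, they only had to move by less than the pooled SD of 1.38, and turns of direction were not counted. The ratio of swimming against walking differed by -0.25 with all libraries and by -1.07 to 0.60 with single libraries left out. Many fits left out a library outside the groups compared, and the ratio's sign-flip test could not pass. The total of 744 is therefore no measure of robustness. The 4 differences of Myh7 from transection and its test over the 5 groups passed under every alternative run. With library totals as the only scaling, Myh7 with swimming against contusion was 0.046; that scaling moved the median of all genes to 0.19 in this comparison and to -0.32 for transection against uninjured. Without transection library 3 and swimming library 2 together, Myh7 with swimming was 0.016 against uninjured, 0.22 against contusion and 0.14 against walking. Leaving out single libraries, Myh7 ranged from -0.56 to 0.043 for swimming against uninjured, -0.34 to 0.24 for swimming against contusion, -0.44 to 0.15 for swimming against walking and, with the lowest value without walking library 2, -0.042 to 0.19 for walking against contusion; Myh6 ranged from -0.84 to 0.19 for swimming against uninjured, turning without uninjured library 2 or 3 or swimming library 2. None of these passed in either direction, and the cause was not tested.

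The adjusted p of Myh6 over the 5 groups was 0.0354 with library totals, 0.0485 without the low-count filter, 0.0277 with DESeq2, 0.0122 with voom and 0.0292 without both libraries, and 0.0263 to 0.116 with single libraries left out. The first 5 of these settings called 5021, 4213, 5575, 6252 and 4453 genes in that test. Myh6 passed for transection against contusion with the compared groups alone (1.35) and for walking against transection with voom (2.23, adjusted p = 0.0436). Those fits called 1976 and 3648 genes in these comparisons. Robust estimation of the spread, chosen after seeing the data, changed no call.

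The labels do not say that a replicate number marks a shared day or litter. Deviations of same-numbered libraries correlated between -0.365 and 0.480 over 40 pairs, and 4 of 20 libraries lay closest to their own number, so the numbers were not taken to pair libraries. With the replicate block, Myh7 was -2.91 for transection against uninjured (adjusted p = 0.00156), Myh6 was 0.075 for swimming against uninjured, and no call changed; the ratio's sign-flip test cannot go below 0.125. In the main fit, the 95% intervals of Myh7 for pairs without transection lay between -1.46 and 1.19 on the log2 scale. Their width came from 4 libraries a group and from 1 spread shared by all groups, swimming library 2 included. The SD of log2 CPM was 2.38 in the swimming group and 0.076 in the uninjured group. Without swimming library 2, contusion against uninjured muscle had an unadjusted p of 0.373 (edgeR), against 0.716 in the main fit.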
